A study of Homo sapiens with 6 samples.

Results

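The genes described here encode subunits of the mitochondrial respiratory chain and ATP synthase. They were taken from the deposited count table by symbol, as protein-coding rows whose names begin with NDUF, SDH, UQCR, COX4 to COX8 or ATP5 with a subunit letter, or with MT- for the mitochondrial genome. This gave 101 of 60664 rows, of which 88 lie in the nuclear and 13 in the mitochondrial genome. RNA was compared between 2 groups of 3 libraries, all carrying the label HCT8 (an established line of human colorectal cancer cells) and grown in DMEM with fetal bovine serum. The control group (genotype label WT) received a control plasmid, and the KDM4A group (genotype label KDM4A-overexpressing) received a KDM4A overexpression plasmid. All 6 libraries carry batch number 1, and no other treatment is labelled. KDM4A is a histone demethylase of methylated lysines on histone H3. The sources used here do not give the plasmid's promoter, the time after transfection or whether the libraries come from separate cultures, so p-values measure the spread between these libraries, which may be technical.

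Complexes I to IV of the inner mitochondrial membrane pass electrons from NADH and succinate to oxygen. Complexes I, III and IV pump protons as they do so, and complex V, the ATP synthase, lets the protons flow back to make ATP. Every complex except II is built from subunits of both genomes. The mitochondrial genes are transcribed as long precursors from both strands of the circular genome, whereas each nuclear gene has its own promoter and its protein is imported.

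Levels are given as CPM, counts scaled to a common library total with TMM factors, and changes as log2 fold changes, which also stand alone in brackets or after "rose by" and "fell by". KDM4A itself stood at 42.9, 45.9 and 45.3 CPM in the controls and 152, 157 and 159.9 CPM with the KDM4A plasmid, and all 3 libraries given its plasmid lay above the controls (log2 fold change 1.81, SE 0.06, edgeR adjusted p = 7.2e-15). The libraries held 14284240 to 23905980 counts. Markers of the labelled cell type differed between the groups. The summed level of 14 colorectal epithelial markers was 264 to 280.3 CPM in the controls and 3592 to 3858 CPM in the KDM4A group, and all 12 that could be tested were higher. EPCAM and the keratins KRT8 and KRT18 had over 10 CPM in both groups, while KRT20 and CEACAM5 lay under 1 CPM in both. In the controls CDX1 and CLDN3 also lay under 1 CPM. The sum of 9 genes of kidney and neural development, IRS4 and LIN28B among them, went the other way, from 2592 to 2971 CPM in the controls to 547 to 583 CPM, with 8 of 9 lower. Fibroblast markers (7 genes) summed to 21.1 to 22.2 CPM and 14.1 to 16.6 CPM, leukocyte markers (5 genes) to 0.614 to 1.48 CPM and 2.54 to 3.11 CPM, and endothelial markers (3 genes, with CDH5 at 0 in the controls) to 0.176 to 0.296 CPM and 0.763 to 0.873 CPM. These marker levels move with the groups and so with every difference below, and their part in the results was not tested. The files do not show whether both groups are the same cell line, so a difference between lines and a change with the plasmid cannot be told apart in any value below.

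Most subunit genes of every complex were higher in the KDM4A group. Of the 101 genes, 92 had enough counts to be tested; 78 were higher, 6 lower and 8 did not pass. The threshold was an adjusted p of 0.05 in edgeR's quasi-likelihood test, with Benjamini-Hochberg adjustment over all genes. The background was high, since 78.6% of the 17147 genes tested passed, 40.0% as higher and 38.6% as lower. The median log2 fold change of the 92 genes was 0.62, against 0.03 over all genes tested. The groups did not overlap in 81 of the 92 genes, where the share over all genes was 79.7%. By complex, 32 of 43 genes of complex I were higher and 5 lower, all 4 of complex II and all 10 of complex III were higher, 14 of 16 of complex IV were higher and 1 lower, and 18 of 19 of complex V were higher and none lower. Rises of at least 2-fold were seen in 13 genes, 6 mitochondrial and 7 nuclear. The 6 genes that were lower were NDUFS1, NDUFA5, NDUFA10, NDUFV3, NDUFA4L2 and MT-ND4L. With each library's trend of counts on exon length removed, the split became 57 higher and 13 lower, where 34.7% of all genes were higher and 41.8% lower. Among the genes whose sign turned, ATP5F1B, ATP5F1C and UQCRC2 then passed as lower instead of higher. NDUFS1, NDUFA10 and NDUFV3, lower in the main fit, no longer passed. CPM are shares of a library, so more RNA of these genes per cell and a changed mix of cells cannot be told apart.

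**Figure D1:**
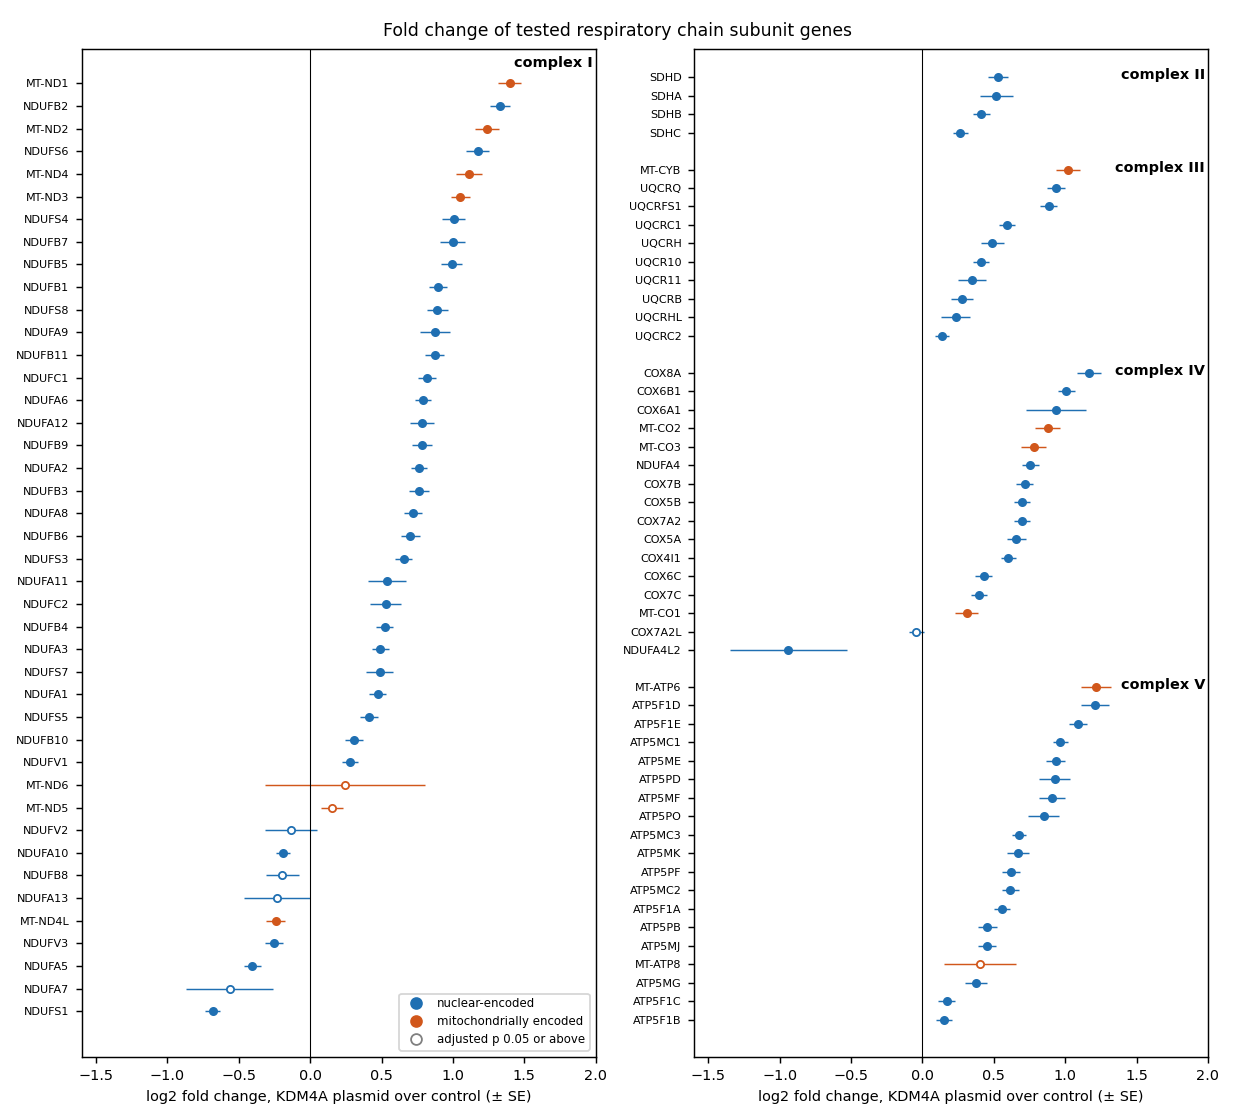
Log2 fold change (KDM4A group over control, edgeR, ± SE) of 91 of the 92 tested genes, by complex, with nuclear genes in blue and mitochondrial genes in orange; filled points passed the test. Points lie mostly to the right of 0 in every complex, from MT-ND1 at 1.40 to NDUFA4L2 at -0.94, and complex I holds most of the genes to the left of 0.

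Most mitochondrially encoded genes rose, by unequal amounts. Of 13, 9 were higher, 1 lower and 3 did not pass, with a median log2 fold change of 0.88. The largest rise was in MT-ND1 (ENSG00000198888, mitochondrial genome, 3307 to 4262, plus strand), a core membrane subunit of complex I. Its level was 1397, 1344 and 1646 CPM in the controls and 4099, 3704 and 3770.5 CPM with the KDM4A plasmid (log2 fold change 1.40, SE 0.08, edgeR adjusted p = 2.8e-11). MT-ND2, another proton-pumping subunit of complex I, stood at 1790.5, 1821 and 2145 CPM in the controls and 4957, 4195 and 4409.9 CPM with the KDM4A plasmid. For both genes the groups were far apart, and control replicate 3 and KDM4A replicate 1 were the highest of their groups. MT-ND4 had 3946, 4014 and 4885 CPM in the controls and 10139, 8593 and 9009 CPM with the KDM4A plasmid, a log2 fold change of 1.11. MT-ND3 went from 1004 ± 51.5 to 2083 ± 133 CPM (1.05) and MT-CYB, the cytochrome b of complex III, from 2227 ± 229.6 to 4513 ± 435 CPM (1.02). MT-ATP6, the proton channel subunit of ATP synthase, was at 2027, 1987 and 2551 CPM in the controls and 5777, 4514 and 4961 CPM with the KDM4A plasmid (log2 fold change 1.22, SE 0.10, edgeR adjusted p = 1.3e-08).

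The core subunits of cytochrome c oxidase had smaller fold changes. MT-CO2 stood at 3907, 4161 and 4962 CPM in the controls and 8394, 7567 and 7987 CPM with the KDM4A plasmid, a log2 fold change of 0.88, and MT-CO3 went from 5381 ± 599 to 9232 ± 636 CPM (0.78). MT-CO1, the member with the most counts, had 12501, 12183 and 13120.0 CPM in the controls and 15770.0, 15415 and 15656 CPM with the KDM4A plasmid. Its groups did not overlap, but its log2 fold change was 0.31 (SE 0.08, edgeR adjusted p = 0.00157), and the value was -0.05 with the length trend removed and was no longer called against a 1.2-fold minimum. MT-ND5 stood at 2486, 2559.9 and 2754 CPM in the controls and 3180.1, 2649 and 2845 CPM with the KDM4A plasmid, with overlapping groups (log2 fold change 0.15, edgeR adjusted p = 0.0703). With the length trend removed MT-ND5 passed as lower. MT-ND6, the subunit encoded on the other strand, ranged over 67.7, 128 and 214 CPM in the controls and 167, 219 and 97.5 CPM in the KDM4A group. Its control libraries spread more widely than those of any other tested member (coefficient of variation 53.9%), and no difference was detectable (edgeR adjusted p = 0.711). Because the strand setting of the counting is not given here, reads of MT-ND6 and of RNA from the opposite strand cannot be told apart.

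**Figure D2:**
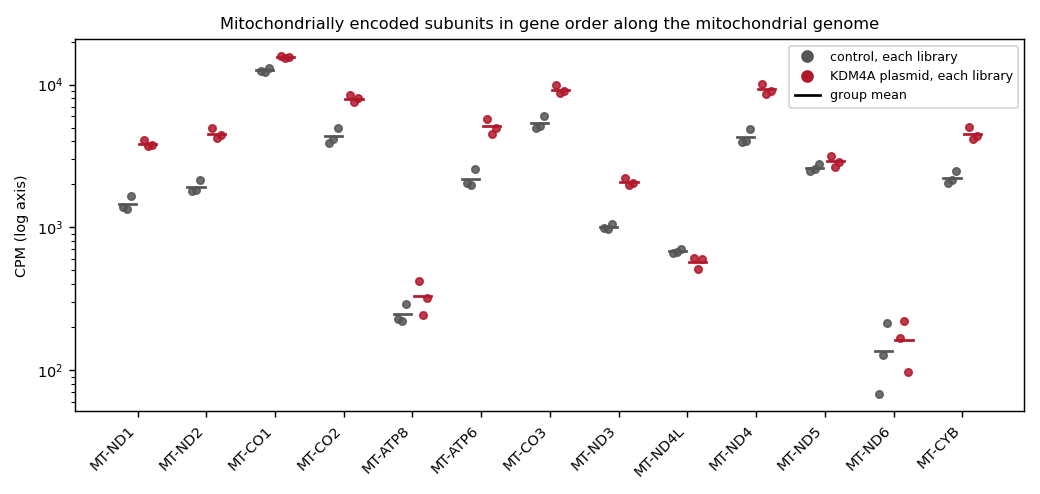
CPM (log axis) of the 13 mitochondrially encoded subunits in each library, in order along the mitochondrial genome; points are libraries and lines are group means. The groups overlap in MT-ATP8, MT-ND5 and MT-ND6, the KDM4A libraries lie below the controls in MT-ND4L, and they lie above in the other 9 genes.

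Genes that share an mRNA differed in fold change. MT-ND4L and MT-ND4 are translated from a single bicistronic mRNA, and so are MT-ATP8 and MT-ATP6. MT-ND4L, a small membrane subunit of complex I, stood at 665, 671 and 701 CPM in the controls and 609, 511 and 602 CPM with the KDM4A plasmid, so every KDM4A library lay below every control (log2 fold change -0.24, SE 0.07, edgeR adjusted p = 0.00287), a call that was lost against a 1.2-fold minimum. The ratio of MT-ND4 to MT-ND4L CPM was 5.94, 5.98 and 6.97 in the controls and 16.6, 16.8 and 14.96 in the KDM4A group. MT-ATP8, the small partner of MT-ATP6, had 229, 221 and 292 CPM in the controls and 422, 243 and 318 CPM with the KDM4A plasmid, with overlapping groups (log2 fold change 0.40, edgeR adjusted p = 0.203). The ratio of MT-ATP6 to MT-ATP8 was 8.86, 8.98 and 8.74 in the controls and 13.7, 18.6 and 15.6 in the KDM4A group. MT-ND4L (10470 to 10766) overlaps the start of MT-ND4 (10760), and MT-ATP8 (8366 to 8572) overlaps the start of MT-ATP6 (8527), and how the counting treated reads over both genes is not given here. Between separate mRNAs, the ratio of MT-ND1 to MT-CO1 went from 0.116 ± 0.00834 to 0.247 ± 0.0112 and that of MT-ND4 to MT-ND5 from 1.64 ± 0.114 to 3.20 ± 0.0400 (SD, n = 3). These ratios were chosen after the values were seen and are descriptions only.

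Other rows of the mitochondrial genome did not all follow the subunit mRNAs. All tRNA rows that passed were higher. MT-TQ differed by 1.29 on the log2 scale (edgeR adjusted p = 2.3e-09) and MT-TP by 1.09 (edgeR adjusted p = 8.8e-08). MT-TS1 differed by 1.12, and MT-TI by 3.71 from 1, 2 and 2 counts in the controls. The tRNA rows MT-TW, MT-TA, MT-TE and MT-TT did not pass, and the others had too few counts to be tested. The large ribosomal RNA MT-RNR2, also read after its values were seen, was at 12.9, 12.0 and 12.3 CPM in the controls and 5.30, 3.43 and 5.01 CPM with the KDM4A plasmid, lower by 1.47 on the log2 scale (SE 0.13, edgeR adjusted p = 1.5e-08), whereas MT-RNR1 had too few counts to be tested. These rRNA levels, a small fraction of the mRNA levels, are those of libraries labelled as mRNA libraries. Of 4 nuclear copies of mitochondrial genes that were read beside them, MTATP6P1 on chromosome 1 held 16.8% to 19.2% of the counts of MT-ATP6 and the copy together. The copy itself differed by 1.14 on the log2 scale. MTND2P28 held 2.89% to 4.81% of the counts shared with MT-ND2, whose log2 difference was 1.21 with the copy added. The copies of MT-ND1 and MT-CO1 held at most 0.265%.

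The summed level of the mitochondrial genes was higher in the KDM4A group by more than that of the nuclear genes. The mitochondrial sum was 37029, 37298 and 42888 CPM in the control libraries and 70699.5, 62500.1 and 65066 CPM in the KDM4A libraries. All 3 KDM4A libraries lay above all controls, with means going from 39071 ± 3308 to 66089 ± 4194 CPM (SD, n = 3), a log2 difference of 0.76. The nuclear sum was 8301, 8031 and 8979 CPM in the control libraries and 11936, 11567 and 11650.3 CPM in the KDM4A libraries, a log2 difference of 0.48. The mitochondrial genes took 3.81% to 4.25% of all counts in the controls and 6.17% to 6.85% in the KDM4A group, and the nuclear genes 0.822% to 0.890% and 1.14% to 1.16%. Within each library the ratio of the mitochondrial to the nuclear sum was 4.46, 4.64 and 4.78 in the controls and 5.92, 5.40 and 5.58 in the KDM4A group, so the groups did not overlap (log2 difference 0.28). By complex, the log2 difference of the summed level was 0.88 for complex I, 0.39 for complex II, 0.84 for complex III, 0.56 for complex IV and 0.82 for complex V. Complex II, which has no mitochondrial gene, had the smallest difference on this scale. In complexes I, III and V the nuclear subunits alone differed by 0.41, 0.45 and 0.48 and the mitochondrial ones by 0.95, 1.02 and 1.15. In complex IV the values were 0.59 for the nuclear and 0.56 for the mitochondrial subunits, closer together than the spread of either sum between libraries (pooled SD 0.07 and 0.08 on the log2 scale). In the controls MT-CO1 held 12601 of the 22326 CPM of this mitochondrial sum. Its log2 fold change was 0.31, against 0.88 for MT-CO2 and 0.78 for MT-CO3. Each of the 18 sums and ratios gave a two-sided exact permutation p of 0.1, the smallest that 3 against 3 libraries allow, and 0.1 after adjustment over the 18.

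**Figure D3:**
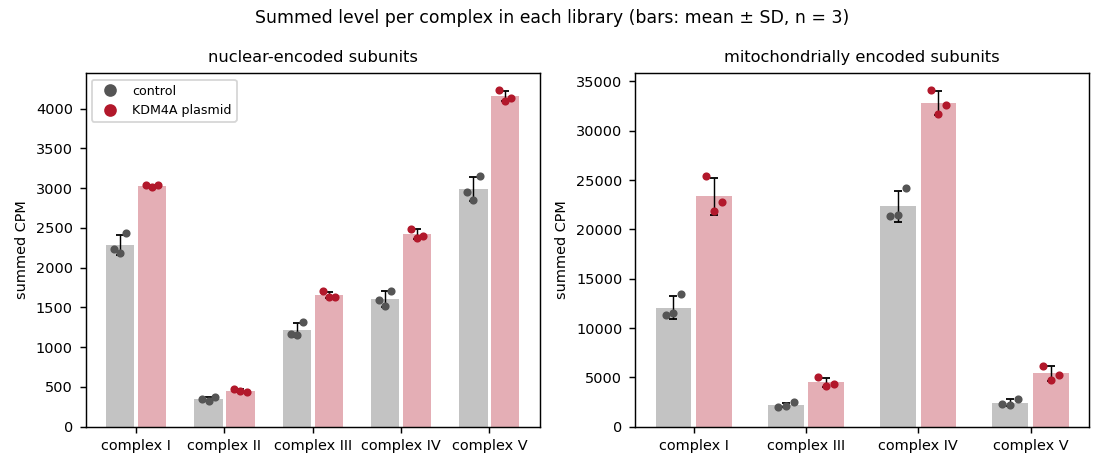
Summed CPM of the nuclear-encoded (left) and mitochondrially encoded (right) subunits of each complex; bars are means ± SD over 3 libraries and points are the libraries. The KDM4A libraries lie above the controls in every pair, and the complex IV sum of mitochondrial genes, the tallest, goes from 22326 ± 1582 to 32828 ± 1204 CPM.

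On a per-length scale the log2 differences of the sums were smaller, as was the median over all genes. TPM, in which counts are first divided by the deposited exon length, moved the median log2 ratio of all genes by -0.34, from 0.02 on the CPM scale to -0.32, so the values below are to be read against -0.32. On the TPM scale the log2 difference was 0.46 for the mitochondrial sum, 0.24 for the nuclear sum and 0.22 for their ratio. For complex II it was 0.05, with 661 ± 15.0 to 685 ± 11.2 TPM. Of the 78 genes that were higher by CPM, 10 had a lower mean TPM in the KDM4A group, among them MT-CO1, NDUFB10, NDUFV1, SDHC, UQCRB, UQCRC2, UQCRHL, ATP5F1B and ATP5F1C.

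The nuclear genes of complex I held both the largest nuclear rise and 4 of the 5 nuclear falls. Of 36 tested, 28 were higher and 4 lower, with a median log2 fold change of 0.60. The accessory subunits, which surround the catalytic core, had 23 of 29 higher and 3 lower (median 0.72). The 7 core subunits of nuclear origin, which carry flavin and iron-sulfur clusters or bind quinone, had 5 higher and 1 lower (median 0.28). Within the NDUFB family of the membrane arm, 10 of 11 were higher and none lower. NDUFB2 (ENSG00000090266, chromosome 7, 140690777 to 140722790, plus strand, GRCh38.p13) stood at 27.2, 26.8 and 24.1 CPM in the controls and 59.7, 68.0 and 68.6 CPM with the KDM4A plasmid. Its KDM4A libraries were all more than double its controls (log2 fold change 1.33, SE 0.07, edgeR adjusted p = 9.2e-12). NDUFS6, which binds zinc near the NADH-oxidising tip, had 32.9, 31.9 and 40.3 CPM in the controls and 86.4, 75.7 and 75.5 CPM in the KDM4A group (1.17). NDUFS4, an accessory subunit of the same arm, went from 24.6 ± 3.13 to 49.7 ± 2.18 CPM (1.01). The acyl carrier NDUFAB1, a subunit that the symbol rule does not take, also rose, from 73.7 ± 6.32 to 151 ± 6.31 CPM (1.03).

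NDUFS1 had the smallest adjusted p of the nuclear genes that fell. NDUFS1 (ENSG00000023228, chromosome 2, 206114817 to 206159509, minus strand, GRCh38.p13) encodes the large iron-sulfur subunit that carries electrons away from the NADH site. It stood at 213, 215 and 219.9 CPM in the controls and 136, 134 and 132 CPM with the KDM4A plasmid, with no overlap and little spread (log2 fold change -0.68, SE 0.05, edgeR adjusted p = 7.6e-10). With the length trend removed, its log2 fold change was -0.12 and no longer passed (edgeR adjusted p = 0.0562). NDUFA5, an accessory subunit of the quinone module, was at 159, 160.0 and 182 CPM in the controls and 130.0, 124 and 125 CPM with the KDM4A plasmid (-0.41, SE 0.06, edgeR adjusted p = 6e-06). NDUFA5 still passed as lower with the length trend alone removed and, like NDUFS1, against a 1.2-fold minimum. It had the opposite sign (0.17, edgeR adjusted p = 0.00321) with length and GC trends both removed. NDUFA10 of the membrane arm went from 149 ± 2.85 to 131 ± 1.98 CPM (-0.19) and NDUFV3 of the NADH module from 66.1 ± 5.20 to 55.6 ± 1.31 CPM (-0.25), and neither passed with the length trend removed or against a 1.2-fold minimum. These 4 genes have deposited exon lengths of 11660, 5496, 4855 and 5725 bases, against a median of 804 bases over the 79 nuclear genes tested.

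Of the other core subunits of complex I, NDUFS8 and NDUFS3 rose by 0.89 and 0.66, NDUFS7 by 0.49 and NDUFV1, the NADH-binding subunit, by 0.28. With length and GC trends both removed, NDUFS7, NDUFV1 and the accessory gene NDUFB10 passed as lower instead of higher. NDUFV2, an iron-sulfur core subunit, was at 2.22, 1.83 and 2.24 CPM in the controls and 1.98, 1.91 and 1.84 CPM with the KDM4A plasmid and did not pass (edgeR adjusted p = 0.51). A named copy of NDUFV2 held 565 counts over the 6 libraries and NDUFV2 itself 235, so its level is uncertain. The accessory genes NDUFB8 (8.64 ± 0.464 to 7.66 ± 1.09 CPM), NDUFA13 (1.47 ± 0.327 to 1.24 ± 0.0262 CPM) and NDUFA7 (0.755 ± 0.0722 to 0.528 ± 0.106 CPM) did not pass either, with log2 fold changes of -0.20, -0.23 and -0.56. These 3 genes passed as lower with the length trend removed, with values of -0.54, -0.54 and -0.88, and again with length and GC trends removed. NDUFV2 passed as lower with the length trend removed alone (-0.49), and NDUFB8 also without KDM4A replicate 1. In NDUFV2 and these 3 genes 21.0% to 33.8% of the exon bases in the GENCODE 29 annotation are shared with another gene on the same strand, where a counter can leave reads unassigned. NDUFA7 had groups that did not overlap, at 0.740, 0.692 and 0.834 CPM and 0.524, 0.424 and 0.635 CPM.

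Succinate dehydrogenase, complex II, which also runs a step of the TCA cycle, rose in all 4 genes by small amounts. SDHB, its iron-sulfur subunit, stood at 102, 101 and 113 CPM in the controls and 144, 139.6 and 137 CPM with the KDM4A plasmid (log2 fold change 0.41, SE 0.06, edgeR adjusted p = 3.4e-06). The membrane anchors SDHD and SDHC were at 89.3, 85.5 and 106 CPM in the controls and 141, 134 and 129.9 CPM with the KDM4A plasmid for SDHD (0.53) and at 146, 136 and 147 and 176, 171 and 168 CPM for SDHC (0.26). No KDM4A library of these genes fell into the control range. SDHA, the flavoprotein that oxidises succinate, had only 6.02, 5.09 and 6.01 CPM in the controls and 8.61, 7.67 and 8.40 CPM in the KDM4A group (0.52, SE 0.11). Named copies of SDHA held 3694 counts over the 6 libraries and SDHA itself 802, so its level is uncertain. With the length trend removed, 2 of the 4 genes remained higher, where 34.7% of all genes were higher. SDHC was then at -0.10, and the median over all genes was -0.07.

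All 10 genes of complex III were higher, with UQCRQ and the Rieske gene leading the nuclear ones. UQCRFS1, the Rieske iron-sulfur protein that takes electrons from ubiquinol, stood at 82.9, 82.5 and 95.1 CPM in the controls and 162, 162 and 158 CPM with the KDM4A plasmid (log2 fold change 0.89, SE 0.06, edgeR adjusted p = 2.9e-10). UQCRQ, a small subunit beside cytochrome b, had 74.0, 65.5 and 68.8 CPM in the controls and 125, 135 and 139 CPM with the KDM4A plasmid (0.94). In both genes all KDM4A libraries lay above the controls. The core proteins UQCRC1 and UQCRC2 rose by 0.59 and 0.14. UQCRC2 was at 197, 199 and 206 CPM in the controls and 224, 219 and 219 CPM with the KDM4A plasmid, without overlap, and its value was -0.19 with the length trend removed, when it passed as lower (edgeR adjusted p = 0.00149). The call of UQCRC2 was also lost without control replicate 1, control replicate 2 or KDM4A replicate 2. UQCRH, the hinge protein, went from 278 ± 39.7 to 390.4 ± 21.3 CPM (0.49). Its paralog UQCRHL, which went from 14.3 ± 1.65 to 17.0 ± 1.75 CPM, had overlapping groups and passed narrowly (edgeR adjusted p = 0.0429), a call lost with DESeq2, with limma-voom and without control replicate 1 or 2 or KDM4A replicate 1 or 3. UQCR10 and UQCR11, further small subunits, rose by 0.41 and 0.35, and UQCRB by 0.27, with overlapping groups. Cytochrome c1, encoded by CYC1 outside the symbol rule, rose from 67.8 ± 7.15 to 107 ± 11.4 CPM (0.67).

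In complex IV, the widely expressed isoforms rose and the tissue-restricted ones were nearly absent. Of 13 nuclear genes tested, 11 were higher, 1 was lower and 1 did not pass. COX8A, a small membrane subunit, stood at 12.7, 11.4 and 10.9 CPM in the controls and 25.8, 24.6 and 28.4 CPM with the KDM4A plasmid (log2 fold change 1.17, SE 0.09, edgeR adjusted p = 1.2e-09), though 34.5% of its exon bases are shared with another gene on the same strand. COX6B1, which faces the intermembrane space, was at 98.0, 98.5 and 110.2 CPM in the controls and 213, 203 and 201 CPM with the KDM4A plasmid (1.01). Both genes about doubled in every KDM4A library. COX6A1 went from 40.8 ± 8.46 to 78.6 ± 15.1 CPM (0.94), with KDM4A replicate 1 at 94.5 CPM and replicate 2 at 64.4 CPM. COX5B, COX7A2, COX7B and COX5A rose by 0.70, 0.70, 0.72 and 0.66, and COX4I1, the regulatory subunit, by 0.60 from 247 ± 10.6 to 375 ± 9.95 CPM. COX6C and COX7C rose by 0.43 and 0.40. Of the isoforms known from lung, muscle or testis, COX4I2, COX7A1 and COX7B2 had 0 counts in all 6 libraries, and COX6A2 and COX8C had at most 2 in any library. COX6B2 had 0, 7 and 7 counts in the controls and 9, 10 and 3 in the KDM4A group, also too few to be tested.

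Other related genes of complex IV differed in call. COX7A2L, a COX7A-like protein that joins complexes III and IV into supercomplexes, stood at 114, 108 and 113 CPM in the controls and 108, 111 and 105 CPM with the KDM4A plasmid, and its groups overlapped (log2 fold change -0.04, edgeR adjusted p = 0.452; it passed as lower, at -0.33, with the length trend removed), while its relative COX7A2 was at 115, 105 and 119 CPM in the controls and 184, 179.9 and 186 CPM with the KDM4A plasmid. NDUFA4, named after complex I but a subunit of complex IV, was at 131, 118 and 132 CPM in the controls and 221, 219.9 and 201 CPM with the KDM4A plasmid (0.75, SE 0.06, edgeR adjusted p = 1.8e-09). NDUFA4L2, its hypoxia-inducible paralog, was low, at 1.22, 0.445 and 0.878 CPM in the controls and 0.233, 0.635 and 0.353 CPM with the KDM4A plasmid, with overlapping groups (-0.94, SE 0.41, edgeR adjusted p = 0.0439). That call was lost with DESeq2, with limma-voom and without control replicate 1 or 3 or KDM4A replicate 1 or 3.

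Every tested nuclear gene of ATP synthase was higher, 17 of 17, with a median log2 fold change of 0.67. Its F1 head is made of a catalytic ring and a central stalk. ATP5F1D and ATP5F1E, the delta and epsilon subunits, stood at 15.1, 15.5 and 12.6 CPM in the controls and 28.6, 36.9 and 33.7 CPM with the KDM4A plasmid for ATP5F1D (1.21, SE 0.10, edgeR adjusted p = 3.6e-09) and at 94.2, 91.5 and 109 and 216, 205 and 208 CPM for ATP5F1E (1.09). ATP5F1B, the catalytic beta subunit, was at 983, 929.6 and 969 CPM in the controls and 1023, 1083 and 1096 CPM with the KDM4A plasmid, a small difference without overlap (0.15, SE 0.06, edgeR adjusted p = 0.0227). ATP5F1A, the alpha subunit, rose by 0.55 and ATP5F1C, the gamma subunit, by 0.17. ATP5F1B and ATP5F1C had values of -0.19 and -0.20 with the length trend removed and passed there as lower. The call of ATP5F1B was lost without control replicate 2, KDM4A replicate 2 or KDM4A replicate 3, and that of ATP5F1C without control replicate 1, control replicate 2 or KDM4A replicate 1.

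The 3 genes of the c ring, the rotor through which protons pass, encode the same mature protein. ATP5MC1 stood at 58.9, 56.1 and 56.5 CPM in the controls and 109, 112 and 114 CPM with the KDM4A plasmid (0.97), ATP5MC2 at 73.6, 69.3 and 70.8 and 99.6, 115 and 113 CPM (0.62), and ATP5MC3 at 193, 197 and 200.0 and 318, 318 and 306 CPM (0.67). In all 3 genes every KDM4A library lay above the controls. The stalk genes ATP5PD, ATP5PO, ATP5PF and ATP5PB, which hold the head still, rose by 0.93, 0.85, 0.62 and 0.45. Of the small membrane subunits, ATP5ME and ATP5MF, which sit where the enzyme forms dimers, rose by 0.93 and 0.91, and ATP5MK, ATP5MJ and ATP5MG by 0.67, 0.45 and 0.38. ATP5MGL and the readthrough genes ATP5MF-PTCD1 and NDUFC2-KCTD14 had too few counts to be tested.

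Per unit of length, 12 of the 13 mitochondrial genes lay above every nuclear member in the controls, from MT-ATP8 at 2764 ± 299 TPM to MT-CO1 at 18973 ± 261 TPM, with MT-ND6 below them at 596 ± 296 TPM. The nuclear subunits of one complex spanned a wide range. The highest nuclear genes in the controls were ATP5F1B at 1269 ± 56.8 TPM, UQCRH at 1198 ± 117 TPM and COX7C at 1196 ± 32.6 TPM (SD, n = 3). These belong to complexes V, III and IV, and the highest of complex I was NDUFS5 at 838 ± 46.2 TPM. The lowest genes that are not paralogs or isoforms were NDUFA9 at 1.95 ± 0.228 TPM, NDUFA7 at 3.02 ± 0.157 TPM, SDHA at 4.92 ± 0.396 TPM, NDUFV2 at 5.67 ± 0.528 TPM and NDUFA13 at 6.61 ± 1.71 TPM. NDUFA9 has a deposited exon length of 8356 bases, by which its counts are divided. These levels describe the counted rows: 9 members share at least 20% of their exon bases with another gene on the same strand and 47 have at least 1 named copy.

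**Figure D4:**
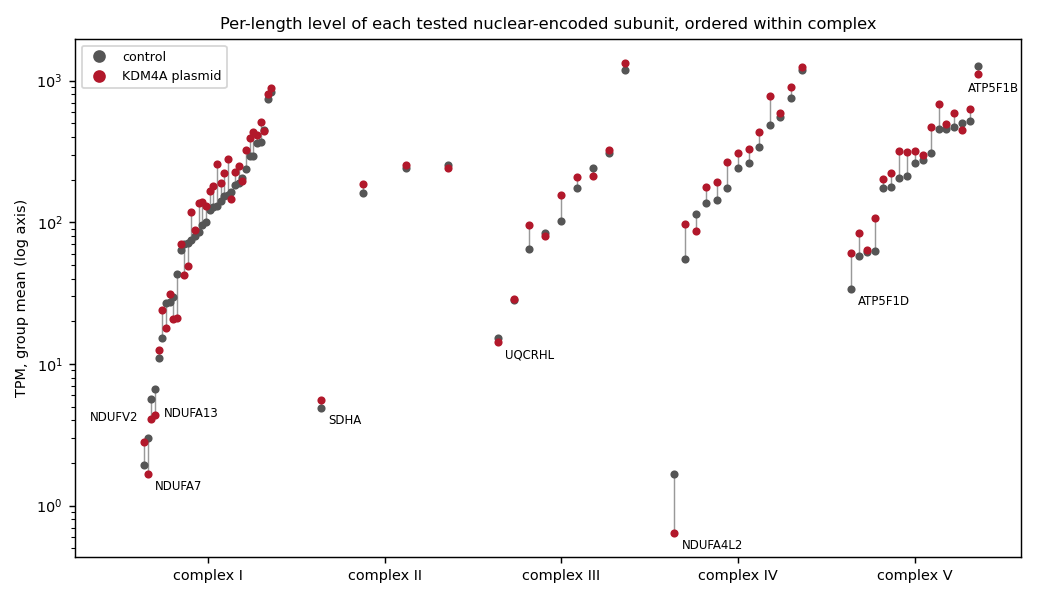
Group mean TPM (log axis) of each tested nuclear subunit, ordered by control level within its complex, with lines joining the group means of a gene. Levels run from NDUFA4L2 at 1.67 to 0.638 TPM to ATP5F1B at 1269 to 1115 TPM, and the spread between genes of a complex is much wider than the difference between groups.

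Fold changes followed exon length over the whole table, and the subunits are short. Spearman's rho between log2 fold change and exon length was -0.30 over the 17147 genes and -0.36 over the 79 nuclear members, descriptions across genes that share the same 6 libraries. With GC content, the values were 0.39 over all genes with a GC value and 0.03 over the nuclear members. Of the 61 nuclear members with exons under 2000 bases, 56 were higher and 1 lower (median log2 fold change 0.62), and over all genes of that length the median was 0.36, with 2948 of 5652 higher. Of the 18 members at 2000 bases or more, 13 were higher and 4 lower (median 0.52), where all genes of that length had a median of -0.14. NDUFB5 and ATP5F1E rose by 0.99 and 1.09 with exon lengths of 4199 and 3610 bases, while NDUFS1, the longest member, was at -0.68 where genes of 7091 bases or more had a median of -0.64. With the length trend removed per library, the medians were 0.29 for the nuclear and 0.54 for the mitochondrial members and -0.07 over all genes, with 49 of 79 and 8 of 13 members higher. Of all genes, 34.7% were higher and 41.8% lower in that fit. With length and GC trends both removed, 62 members were higher and 10 lower, against 35.7% and 42.0% of all genes.

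**Figure D5:**
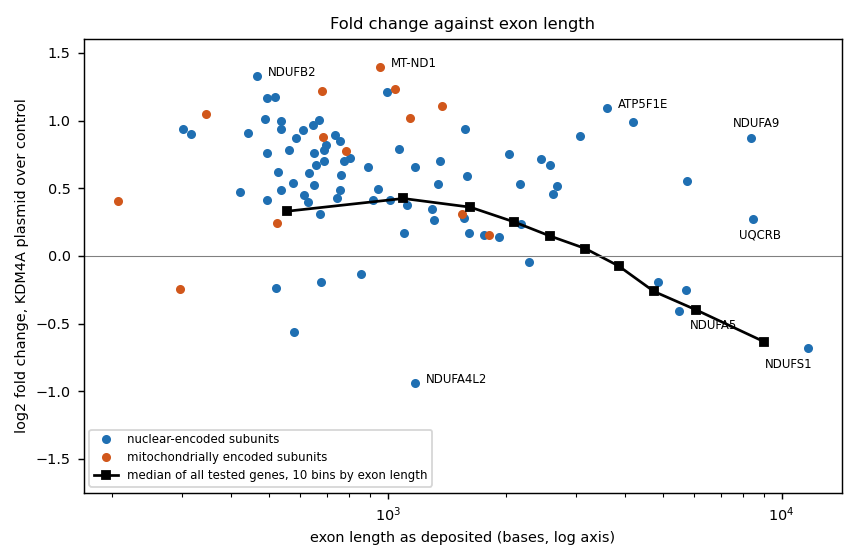
Log2 fold change (KDM4A group over control) against deposited exon length (log axis) for the 92 tested members; black squares are medians of all tested genes in 10 bins by exon length, falling from 0.42 in the second to -0.64 in the last. NDUFS1 and NDUFA5 at the right (-0.68 and -0.41) lie near the squares, whereas NDUFB5 and ATP5F1E lie above them.

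Libraries of a group differed in a shared way. Control replicate 3 was the highest control in 70 of the 92 genes and KDM4A replicate 1 the highest of its group in 55. The shares over all genes were not counted. Over the tested genes, chi-square divided by its degrees of freedom was 7.66 and 10.8 between control replicate 3 and the other controls, against 2.92 between those. For KDM4A replicate 1 it was 4.34 and 2.95, against 1.48. Whether the counts are particular to the members was not tested. The median coefficient of variation of a member was 8.69% over the controls and 4.93% over the KDM4A libraries. Without control replicate 3, 79 members were higher, and over all 6 fits that each left out 1 library, 73 to 79 were higher and 5 to 6 lower.

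Nuclear subunit promoters are known to bind NRF1, GABP of the ETS family and YY1, and their windows were read for short matches to these factors. Of the 88 nuclear members, 69 had a promoter entry from RefSeq (GRCh38.p14), and 250 bases before to 50 bases after the start were searched on both strands. The letters were TGCGCATGC for NRF1, AAGATGGCG for YY1 and ACTTCCGG for ETS factors. A match to any of them was found in 22 of 69 members (31.9%), against 9.05% of 22199 promoters of protein-coding genes. By motif, NRF1 was found in 10.1% of members and 1.87% of protein-coding promoters, YY1 in 11.6% and 2.41%, and ETS in 14.5% and 5.34%. Among the 55 members with an entry that were higher, 34.5% held a match, and among the 9 that were lower or did not pass, 33.3%. These are matches of letters and do not show binding. The windows below run from 120 bases before the start to 20 bases from it, 5′ to 3′ on the gene's strand, with a match in capitals. In each complex the member with the largest rise among those with a match is shown, then NDUFS1, the largest fall in complex I, which has none in the stretch printed.
NDUFS6 (chr5:1801287-1801426, plus strand, NRF1): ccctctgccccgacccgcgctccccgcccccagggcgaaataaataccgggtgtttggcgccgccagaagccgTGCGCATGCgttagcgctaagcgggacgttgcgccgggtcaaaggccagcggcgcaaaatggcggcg
SDHD (chr11:112086753-112086892, plus strand, NRF1 then ETS): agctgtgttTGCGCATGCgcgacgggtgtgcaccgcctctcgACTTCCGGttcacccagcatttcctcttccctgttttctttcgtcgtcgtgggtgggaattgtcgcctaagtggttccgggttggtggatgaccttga
UQCRQ (chr5:132866522-132866661, plus strand, ETS on the opposite strand): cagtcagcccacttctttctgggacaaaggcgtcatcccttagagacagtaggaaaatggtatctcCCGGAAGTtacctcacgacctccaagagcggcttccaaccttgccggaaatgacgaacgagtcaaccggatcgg
COX8A (chr11:63974500-63974639, plus strand, ETS): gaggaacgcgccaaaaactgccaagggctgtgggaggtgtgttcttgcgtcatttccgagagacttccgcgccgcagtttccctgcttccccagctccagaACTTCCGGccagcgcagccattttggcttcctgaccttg
ATP5PD (chr17:75046950-75047089, minus strand, ETS): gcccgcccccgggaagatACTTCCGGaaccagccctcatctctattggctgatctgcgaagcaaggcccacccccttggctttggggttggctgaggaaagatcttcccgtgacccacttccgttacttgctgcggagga
NDUFS1 (chr2:206159425-206159564, minus strand, no match in this stretch): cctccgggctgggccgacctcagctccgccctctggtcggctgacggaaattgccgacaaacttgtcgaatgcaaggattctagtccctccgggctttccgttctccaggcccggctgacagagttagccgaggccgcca
In these genes the log2 fold changes were 1.17, 0.53, 0.94, 1.17, 0.93 and -0.68, and NDUFS1 held an ETS match elsewhere in its longer window.

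Of 11 nuclear regulators of mitochondrial genes, 7 were lower and 2 higher, where 38.6% of all genes were lower and 40.0% higher. Their median log2 fold change was -0.27 and their median exon length 6288 bases, and all genes of 5316 to 7090 bases had a median of -0.40. PPARGC1A, the coactivator PGC-1alpha, stood at 5.23, 4.20 and 4.74 CPM in the controls and 1.40, 1.06 and 1.06 CPM with the KDM4A plasmid (-2.01, SE 0.18, edgeR adjusted p = 1.4e-08). Its relative PPARGC1B went from 41.7 ± 4.96 to 17.7 ± 1.02 CPM (-1.23). In both genes every KDM4A library lay below every control. The GABP DNA-binding subunit GABPA fell by 0.84 on the log2 scale, SP1 by 0.90, NRF1 by 0.27 and YY1 by 0.11. The nuclear receptor ESRRA rose by 0.82, from 23.6 ± 1.15 to 41.6 ± 4.49 CPM, and GABPB1 by 0.25.

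Of 29 genes that express the mitochondrial genome, 12 were higher, 10 lower and 7 did not pass (median 0.12), shares near the 40.0% and 38.6% over all genes. The transcription factor TFB2M went from 24.1 ± 1.48 to 46.0 ± 2.91 CPM (0.93) and the oligoribonuclease REXO2 from 35.7 ± 2.70 to 63.9 ± 1.55 CPM (0.83). The accessory subunit of the mitochondrial DNA polymerase, POLG2, fell from 77.6 ± 2.61 to 34.3 ± 1.90 CPM (-1.18) and the exonuclease MGME1 from 134 ± 10.5 to 80.9 ± 1.96 CPM (-0.73).

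Of 54 assembly factors, 31 were higher, 12 lower and 11 did not pass, with a median log2 fold change of 0.28, where 40.0% of all genes were higher and 38.6% lower with a median of 0.03. Their median exon length was 1750.5 bases, and all genes of 1375 to 1863 bases had a median of 0.36. The lists for single complexes are short. For complex I, 10 of 17 were higher and 3 lower; DMAC1 rose by 1.05 and ECSIT by 0.92, and the iron-sulfur factor NUBPL fell by 0.84 and FOXRED1 by 0.40 on the log2 scale. For complex II, SDHAF2, which attaches flavin to SDHA, rose from 2.17 ± 0.552 to 7.33 ± 0.124 CPM and SDHAF1 by 0.71, and SDHAF3 fell by 0.25. For complex III, UQCC3 and UQCC2 rose by 1.69 and 1.07, and LYRM7, which hands over the Rieske protein, and TTC19 fell by 0.91 and 0.44. For complex IV, 14 of 22 were higher and 5 lower; the copper chaperone SCO2 rose by 1.48 and COX20 by 1.16, and COX11, another copper factor, and COX18 fell by 0.58 and 0.47. For complex V, 2 of 5 were higher and 1 lower; TMEM70 rose by 0.86, FMC1 by 1.16 from 0.503 ± 0.196 to 1.10 ± 0.177 CPM, and ATPAF1 fell by 0.26.

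The lists of routes that feed the chain are also to be read against 40.0% of all genes higher and 38.6% lower, and against genes of like exon length. Median exon lengths were 2579 bases for the TCA list, 2109 for electron carriers and 1803.5 for cristae and import. All genes of 2328 to 2865, 1864 to 2327 and 1375 to 1863 bases had medians of 0.15, 0.25 and 0.36. Of 18 genes of the TCA cycle and pyruvate dehydrogenase, 11 were higher and 3 lower (median 0.20), with OGDH at 1.14 and SUCLA2 at 0.66, both enzymes of the cycle, and the pyruvate dehydrogenase components DLAT at -0.40 and PDHX at -0.28. Of 25 electron carriers and exchange genes, 14 were higher and 4 lower (median 0.32). SQOR, which passes electrons from sulfide to ubiquinone, stood at 0.370, 0.593 and 0.395 CPM in the controls and 10.4, 9.57 and 7.98 CPM with the KDM4A plasmid (4.35, SE 0.20, edgeR adjusted p = 1.5e-12). ETFB, a carrier of electrons from fatty acid oxidation, went from 9.75 ± 1.09 to 29.6 ± 0.154 CPM, while its acceptor ETFDH fell by 0.28 and the ubiquinone synthesis gene COQ4 by 0.24. Of 22 genes of cristae and protein import, 13 were higher and 5 lower (median 0.38). The chaperonin HSPE1 rose by 1.56 and the import pore TOMM40 by 0.85, and the import receptor TOMM20 fell from 1334 ± 65.0 to 593 ± 17.2 CPM (-1.17) and the cristae gene APOOL by 1.05.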

How the data were processed

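Per the labels' protocols, Trizol was used to extract total RNA, from which 6 mRNA libraries were prepared and run on an Illumina instrument. The authors deposited raw read counts per gene (GRCh38.p13 locations and exon lengths per the file headers); HISAT2, HTSeq and GRCh38 are named in the submitters' processing notes, with versions and strand setting not given in the sources used here. From the deposited counts, 17147 genes passed filterByExpr (minimum count 10) in edgeR 4.0.16 (R 4.3.3). They held 99.8% to 99.9% of each library's counts, with TMM factors from 0.970 to 1.03. All genes were fitted together (glmQLFit robust, glmQLFTest, no covariates, Benjamini-Hochberg adjustment, threshold 0.05). Levels are CPM or, per length, TPM over the deposited exon lengths. Sums were compared by exact two-sided permutation tests. The procedure was tested on simulated data in which a small share of genes changed and fold changes did not follow exon length. In these data 78.6% of genes passed, so that test does not show how the procedure performs here. Counts of same-group libraries departed from sampling noise (chi-square divided by its degrees of freedom was 1.48 to 10.8 and, across groups, 139 to 194), and each library counted as 1 replicate. NDUFA4 and NDUFA4L2 were placed in complex IV.

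The members, lists and tests were chosen with earlier results of these data known. The rule for named genes took every mitochondrial member, the 3 largest and 3 smallest nuclear log2 fold changes per complex, members that were lower, did not pass or were not tested, isoform pairs and the 2 largest rises and falls of each other list. CYC1, NDUFAB1, MT-RNR2 and other genes named for their role stand outside it. Exon overlap was read from the GENCODE 29 annotation and promoters from RefSeq. Alternatives were a replicate block, DESeq2 1.42.0, limma-voom (limma 3.58.1), other normalizations and filters, removal of exon length and GC trends, a 1.2-fold minimum, TPM, added pseudogene counts and leaving out each library. All count columns were matched to samples (0 left unmatched). The values of 1 tested member are not reported here.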

Additional observations from a re-analysis of the deposited data

How the results depend on the processing

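The count of higher members stayed within 1.5 times of 78 in every alternative run, from 57 (length trend removed) to 79 (limma-voom, upper quartile factors, no filter and without control replicate 3). The count of lower members was 13 with the length trend removed, 10 with length and GC trends removed and 2 against a 1.2-fold minimum, and 5 to 6 when 1 library was left out. Of all genes, 34.7% were higher and 41.8% lower with the length trend removed. The shares were 35.7% and 42.0% with both trends removed and 32.7% and 31.3% against a 1.2-fold minimum. For complex II, 2 genes were higher with the length trend removed; for complex III, 6 with the length trend removed, 5 with both trends removed and 6 against a 1.2-fold minimum. On the TPM scale the log2 differences were 0.46 for the mitochondrial and 0.24 for the nuclear sum, 0.52, 0.052, 0.52, 0.31 and 0.55 for complexes I to V, and 0.22 for the ratio. Signs turned for 10 called members with the length trend removed and for 11 with length and GC trends removed. The median log2 fold change over all genes was -0.073 and -0.069 in these fits, against 0.026 in the main fit, so values near 0 are to be read against it. Of the genes the rule names, called or not, signs turned with the length trend removed for MT-ND5 (-0.19, not called in the main fit), MT-CO1 (-0.048), SDHC (-0.10), UQCRHL (-0.069), UQCRC2 (-0.19), ATP5F1C (-0.20) and ATP5F1B (-0.19). With length and GC trends removed they turned for NDUFA5 (0.17), UQCRC1 (-0.058), UQCRC2 (-0.013), ATP5F1B (-0.19) and, outside the members, SDHAF1 (-0.055) and COX18 (0.057). Outside the rule, NDUFS7, NDUFB10 and NDUFV1 passed as lower instead of higher with length and GC trends removed; the cause was not tested. With the replicate number as a block, 76 members were higher and 6 lower (ATP5F1B and UQCRC2 were no longer called), and 13242 of all genes passed, against 13480. Deviations from the group mean had correlations of -0.245, 0.0590 and -0.163 between libraries of the same number. With 3 libraries a group these values depend on each other, so they cannot show whether the numbers pair the libraries. Of 1635 values of 91 named genes under the alternatives, 1546 kept direction and side of the threshold. Many of these alternatives refit the same counts with small changes, so this count is not an independent check. Among the fits, signs of called members turned only where the length trend, or length and GC trends, were removed. With 3 libraries a group, exact tests cannot go below p = 0.1.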
